A study of Mus musculus with 9 samples.

Results

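The genes described here are the microvillus cytoskeleton and linker genes of the intestinal epithelium, 9 of the 50600 genes in the deposited count table. They were chosen by name, and each was found once in the raw counts and once in the TPM values (counts per unit of gene length, set to an equal library total). All 9 passed the filter on low values, which kept the 16208 genes with at least 1 TPM in at least 1 library.

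A microvillus is a finger of plasma membrane around a bundle of parallel actin filaments, and the close-packed microvilli of an enterocyte form its brush border. Vil1 (villin), Espn (espin) and Eps8 bundle or cap the filaments, while Myo1a (brush border myosin I) and Ezr (ezrin) tie the bundle to the membrane around it. At the tips, the protocadherins Cdhr2 and Cdhr5 bind each other across neighbouring microvilli, and the scaffold Ush1c (harmonin) and the motor Myo7b hold them there.

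RNA was sequenced from 9 mouse libraries in 3 groups of 3. The 6 organoid libraries came from WT small intestine, labelled as strain C57BL/6, and the organoids were grown from mice of 2 to 5 months in medium with EGF, Noggin and R-spondin1. They were kept for 24 hr in equal volumes of a concentrated form of that medium and of medium conditioned by tumoroids (T-cM) or by WT organoids (WT-cM), in order to ask what secreted tumoroid factors do to normal epithelium. The 3 tumoroid libraries were untreated cultures from intestinal tumours of Apc1638N/+ mice of more than 6 months, labelled as strain MIX and, by the methods, propagated without R-spondin1; their labels give no time in culture. Genotype, tumour origin, labelled strain, age and medium therefore differed together between tumoroids and organoids and cannot be told apart. The paper's methods, however, give a mixed genetic background for all mice, so the strain labels may not mark a real difference. The Apc1638N allele was not checked from these counts. All 3 groups are epithelial cultures grown without added stroma, from 3 mice each.

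The titles and the treatment fields of the 6 organoid libraries name opposite media. The names T-cM-titled organoids and WT-cM-titled organoids follow the titles alone, so each direction between them is the opposite if the treatment field is correct. Library totals ran from 16541635 to 25170966 counts. The 5 epithelial markers summed to 7258 to 10525 TPM in organoids and 10160 to 11822 TPM in tumoroids, so both kinds of culture carried them. The 10 enterocyte markers summed to 29182 to 63840 TPM in organoids and to 261, 546 and 131 TPM in tumoroids 1, 2 and 3, and all 10 fell. TMM factors (edgeR's correction for library composition) were 0.890 to 0.962 in organoids and 1.19 to 1.21 in tumoroids. Without them, under total-count scaling, the median change of all tested genes in tumoroids moved by 0.39 on the log2 scale, so changes below are relative to TMM scaling unless another scale is named.

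Start-site sequence was shown for the 3 members that give the contrast the levels below turn on, a bundler and an adhesion gene that were lower in tumoroids and the linker that was not. RefSeq windows (GRCm38.p6, 250 bases before the start site and 50 from it on) were matched for 7 of the 9 members and written 5′ to 3′ on the gene's strand. Capitals mark CAAAG, the core of HNF4 sites, or GTTAAT, part of an HNF1 site, both searched on both strands.

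Vil1, chr1:74409134-74409433, plus strand: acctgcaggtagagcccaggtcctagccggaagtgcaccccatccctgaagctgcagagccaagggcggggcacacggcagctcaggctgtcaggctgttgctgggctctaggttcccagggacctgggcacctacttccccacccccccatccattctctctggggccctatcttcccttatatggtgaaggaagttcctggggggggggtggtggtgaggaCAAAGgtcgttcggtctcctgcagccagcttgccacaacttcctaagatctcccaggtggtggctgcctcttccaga

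Cdhr2, chr13:54701213-54701512, plus strand: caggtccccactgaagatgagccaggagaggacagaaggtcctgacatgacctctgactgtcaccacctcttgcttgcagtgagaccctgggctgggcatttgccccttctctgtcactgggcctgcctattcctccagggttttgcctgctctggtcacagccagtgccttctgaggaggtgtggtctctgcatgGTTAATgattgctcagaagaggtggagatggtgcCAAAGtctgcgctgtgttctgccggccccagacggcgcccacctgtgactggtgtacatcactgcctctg

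Ezr, chr17:6782731-6783030, minus strand: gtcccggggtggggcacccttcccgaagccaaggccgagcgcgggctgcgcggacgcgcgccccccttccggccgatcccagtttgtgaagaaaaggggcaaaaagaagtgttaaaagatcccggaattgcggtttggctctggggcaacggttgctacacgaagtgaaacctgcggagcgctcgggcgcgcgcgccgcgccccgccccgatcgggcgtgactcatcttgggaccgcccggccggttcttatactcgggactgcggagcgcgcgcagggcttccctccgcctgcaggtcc

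The Ezr window was the richest of these 3 in CpG, with 38 CpG dinucleotides, 68.0% GC and a CpG observed-to-expected ratio of 1.10. The Vil1 window had 5 CpG, 61.7% GC and a ratio of 0.175, and the Cdhr2 window had 4 CpG, 58.0% GC and a ratio of 0.159. Ratios of the other members' windows were 0.087 for Myo1a, 0.312 for Cdhr5 and 0.332 for Ush1c. The 3 windows of Espn had 0.184, 0.076 and 0.536. Eps8 and Myo7b had no window, so Ezr was the only member not lower in tumoroids with a window. A link between CpG and level was not tested. Over 32851 RefSeq windows the median GC was 52.7% and the median ratio 0.384. CAAAG stood 27 bases before the start site of Vil1 and 20 bases before that of Cdhr2, and was held by 53.9% of all windows. GTTAAT stood 54 bases before the start site of Cdhr2 and was held by 7.10% of all windows. A longer HNF4 motif (CAAAGTCCA, 0.475% of windows), the CDX motif CAATAAA (4.60%) and the TATA box TATAAA (13.6%) matched none of the members' windows. A shorter CDX motif, TTTATNG (10.9% of windows), matched only 1 of the 3 windows of Espn, which also held CAAAG at 202 and 51 bases before its start and at base 19 after it. Windows of Myo1a and Cdhr5 held none of these letters, and Ush1c held CAAAG at base 2 after its start. These matches are letters in a window and not bound sites.

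In organoids the 9 genes together took 0.416 to 0.532% of all counts, against 0.189 to 0.244% in tumoroids. In TPM, which allows levels to be compared between genes, Vil1 stood highest in organoids at 968 ± 96.8 TPM (SD, n = 6), followed by Cdhr5 at 781 ± 173 and Myo1a at 739 ± 113. Ezr at 434 ± 53.5 and Cdhr2 at 396 ± 46.7 came next, then Ush1c at 120 ± 15.7, Myo7b at 94.5 ± 6.42, Eps8 at 27.9 ± 6.72 and Espn at 20.4 ± 5.60. The ranges over the 6 libraries overlapped between Vil1 and Cdhr5, Cdhr5 and Myo1a, Ezr and Cdhr2, and Eps8 and Espn, and the other neighbours in this order did not overlap. In tumoroids the order was led by Ezr, at 665 ± 115 TPM (SD, n = 3), which held 40.4% of the members' summed TPM against 12.1% in organoids. Vil1 was second at 314 ± 24.3, and its range overlapped neither that of Ezr nor that of Cdhr2, the next gene at 172 ± 104. Cdhr2, Cdhr5 (163 ± 86.8) and Myo1a (140 ± 43.3) formed a run of overlapping neighbours, as did Myo7b (80.2 ± 8.23), Ush1c (70.8 ± 32.5) and Eps8 (32.0 ± 4.90), and Espn was lowest at 9.37 ± 5.89.

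**Figure D1:**
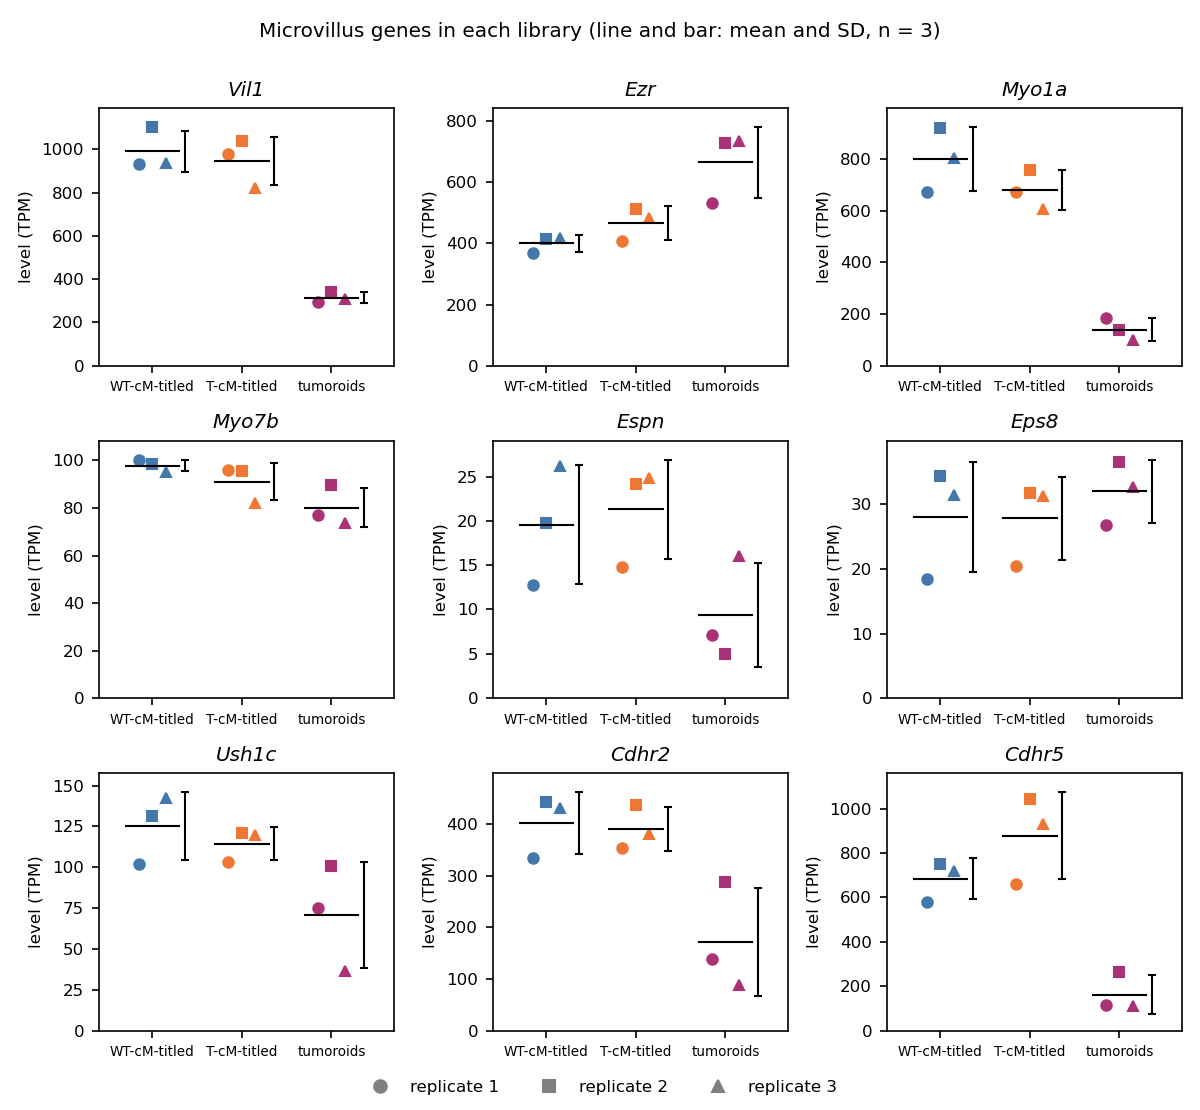
Level in TPM of each of the 9 microvillus genes in every library, by group, with the mean (line) and SD (bar) of 3 libraries and the replicate number as the symbol; each axis starts at 0. Vil1, Myo1a, Cdhr2 and Cdhr5 stand lower in all 3 tumoroids than in all 6 organoids. Ush1c does so narrowly, with at most 101 TPM in tumoroids and at least 102 in organoids. How many of all genes separate in this way was not counted. Ezr runs from 532 to 736 TPM in tumoroids and from 369 to 514 in organoids.

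Between tumoroids and both organoid groups, 7 of the 9 genes fell (Vil1, Myo1a, Myo7b, Espn, Ush1c, Cdhr2 and Cdhr5), none rose, and Ezr and Eps8 did not pass the test (edgeR's quasi-likelihood F test, Benjamini-Hochberg over 16208 genes). Of all tested genes 20.8% fell and 29.6% rose in the same comparison. The median log2 fold change was -1.66 over the 9 members and 0.16 over all tested genes. For 6 of the 9 the change was also larger than 1 on the log2 scale, a call that 33.1% of all tested genes met in either direction. The counts of members were the same against WT-cM-titled organoids (7 lower, none higher, 18.5% of all genes lower, 23.4% higher and 29.8% past the fold as well) and against T-cM-titled organoids (7 lower, none higher, 19.2%, 25.3% and 31.2%). These 3 comparisons share the tumoroid libraries. In RNA from whole cultures, fewer cells of a type and less RNA per cell cannot be told apart, and the part of the enterocyte markers' fall in these results was not tested. Other cell-type markers moved in tumoroids as well. Of the crypt stem cell markers 4 of 5 were higher, and all 5 summed to 424 to 605 TPM against 55.7 to 374 TPM in organoids. The remaining one, Olfm4, leaned the other way without passing the test. It averaged 17.8 TPM in tumoroids, 97.7 TPM in WT-cM-titled and 67.0 TPM in T-cM-titled organoids, with overlapping ranges. Goblet cell markers were lower (5 of 6), with 412 to 2874 TPM against 4297 to 5538. Of 6 Paneth cell markers 3 were lower and 1 was higher, with 974 to 8816 TPM against 15845 to 20512, and of 6 enteroendocrine markers 2 were lower, with 111 to 1119 TPM against 397 to 837. The part of these cell types in the members' changes was not tested either.

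Vil1, the villin gene, lies on chromosome 1 (GRCm38, 74409376 to 74435559, plus strand). It had 932, 1102 and 936 TPM in WT-cM-titled organoids 1, 2 and 3, 978, 1037 and 821 TPM in T-cM-titled organoids and 292, 340 and 309 TPM in tumoroids. The organoid libraries lay together and far above the 3 tumoroids, which were close to each other. In tumoroids Vil1 was 4.44-fold lower (log2 fold change -2.15, SE 0.16, edgeR adjusted p = 7.53e-06). Villin bundles actin and, at high calcium, severs it, and its gene is widely used as a mark of intestinal epithelium.

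Espn codes for espin, an actin bundler that calcium does not inhibit. Its levels in TPM were 12.8, 19.8 and 26.2 in WT-cM-titled organoids, 14.9, 24.2 and 24.9 in T-cM-titled organoids and 7.10, 4.95 and 16.1 in tumoroids. Replicate 1 was lowest in both organoid groups, and tumoroid 3 stood above the other two and overlapped the organoids in TPM, though not in TMM-scaled CPM (counts relative to the corrected library size). The fitted change was 3.17-fold lower in tumoroids (log2 -1.66, SE 0.42, edgeR adjusted p = 0.00836), and without tumoroid 3 its log2 value was -2.29 (edgeR adjusted p = 0.00114). Against WT-cM-titled organoids alone Espn had 14 of 16 alternatives past the threshold, with adjusted p up to 0.0693.

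Eps8, whose product caps the barbed ends of actin filaments at the tip and also bundles them, had 18.4, 34.4 and 31.4 TPM in WT-cM-titled organoids, 20.4, 31.8 and 31.3 TPM in T-cM-titled organoids and 26.8, 36.6 and 32.7 TPM in tumoroids. The 3 groups overlapped, and replicate 1 was the lowest library in each of them. The log2 fold change in tumoroids was -0.35 (SE 0.25, 95% interval -0.90 to 0.20, edgeR adjusted p = 0.267), and it turned to 0.06 under total-count scaling and to 0.22 on the log2(TPM + 1) scale. A difference in Eps8 was not detectable with this spread, and its direction depends on the scaling.

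Myo1a, a single-headed myosin that bridges the actin core and the side of the microvillus membrane, lies on chromosome 10 (GRCm38, 127705170 to 127720940, plus strand). It had 672, 920 and 804 TPM in WT-cM-titled organoids, 673, 759 and 606 TPM in T-cM-titled organoids and 185, 137 and 98.1 TPM in tumoroids. All tumoroids lay below all organoids, with tumoroid 3 the lowest library. The gene was 7.51-fold lower in tumoroids (log2 -2.91, SE 0.27, edgeR adjusted p = 2.58e-05), the largest of the 9 fitted values against both organoid groups and within 1 SE of that of Cdhr5. Against T-cM-titled organoids alone the order turned, with log2 -2.77 for Myo1a and -2.97 for Cdhr5.

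Ezr codes for ezrin, which joins membrane proteins to actin once phosphorylated and lies on chromosome 17 (GRCm38, 6738041 to 6782784, minus strand). It had 369, 415 and 418 TPM in WT-cM-titled organoids, 407, 514 and 482 TPM in T-cM-titled organoids and 532, 727 and 736 TPM in tumoroids. In TPM all 3 tumoroids stood above all 6 organoids, whereas in TMM-scaled CPM the groups overlapped. The TMM-scaled log2 fold change was 0.08 (SE 0.16, 95% interval -0.27 to 0.44, edgeR adjusted p = 0.695). Under total-count scaling it was 0.48 (edgeR adjusted p = 0.0155) and on the log2(TPM + 1) scale it was 0.61 (limma adjusted p = 0.00581). Ezr was not called lower under any of these 3 scalings, and whether it is called higher depends on the scaling.

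The adhesion genes Cdhr2 and Cdhr5 were both lower in tumoroids. Cdhr2, on chromosome 13 (GRCm38, 54701461 to 54736662, plus strand), had 334, 442 and 431 TPM in WT-cM-titled organoids, 354, 437 and 380 TPM in T-cM-titled organoids and 139, 288 and 88.6 TPM in tumoroids. Its fitted change was 3.37-fold lower (log2 -1.75, SE 0.34, edgeR adjusted p = 0.00187). Cdhr2 and Cdhr5 make the heterophilic tip links that pack microvilli together. Cdhr5, on chromosome 7 (GRCm38, 141269083 to 141276786, minus strand), had 581, 752 and 720 TPM in WT-cM-titled organoids, 662, 1042 and 930 TPM in T-cM-titled organoids and 116, 263 and 109 TPM in tumoroids. It was 7.0-fold lower in tumoroids (log2 -2.81, SE 0.33, edgeR adjusted p = 0.000101). For both genes tumoroid 2 was the highest tumoroid and still lay below every organoid library.

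Ush1c, the scaffold whose PDZ domains bind the protocadherins' tails, had 102, 131 and 142 TPM in WT-cM-titled organoids, 103, 121 and 120 TPM in T-cM-titled organoids and 75.0, 101 and 36.5 TPM in tumoroids. Tumoroid 2 came close to the lowest organoid library without reaching it. The change was 2.45-fold lower (log2 -1.29, SE 0.30, edgeR adjusted p = 0.00498). Against T-cM-titled organoids alone Ush1c passed in 14 of 16 alternatives, with adjusted p up to 0.0594. Myo7b, the motor of the same tip complex, moved least of the 7 that fell. It had 100.0, 98.3 and 95.2 TPM in WT-cM-titled organoids, 95.8, 95.4 and 81.9 TPM in T-cM-titled organoids and 77.2, 89.5 and 73.9 TPM in tumoroids, so the groups overlapped in TPM and did not in TMM-scaled CPM. Its log2 fold change was -0.76 (SE 0.12, edgeR adjusted p = 0.000483), with -0.36 (edgeR adjusted p = 0.0236) under total-count scaling and -0.24 (limma adjusted p = 0.0966) on the log2(TPM + 1) scale. The size and, in TPM, the call for Myo7b thus depend on the scaling. Against WT-cM-titled or T-cM-titled organoids alone it passed in 15 and 14 of 16 alternatives, with adjusted p up to 0.0868 and 0.259.

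**Figure D2:**
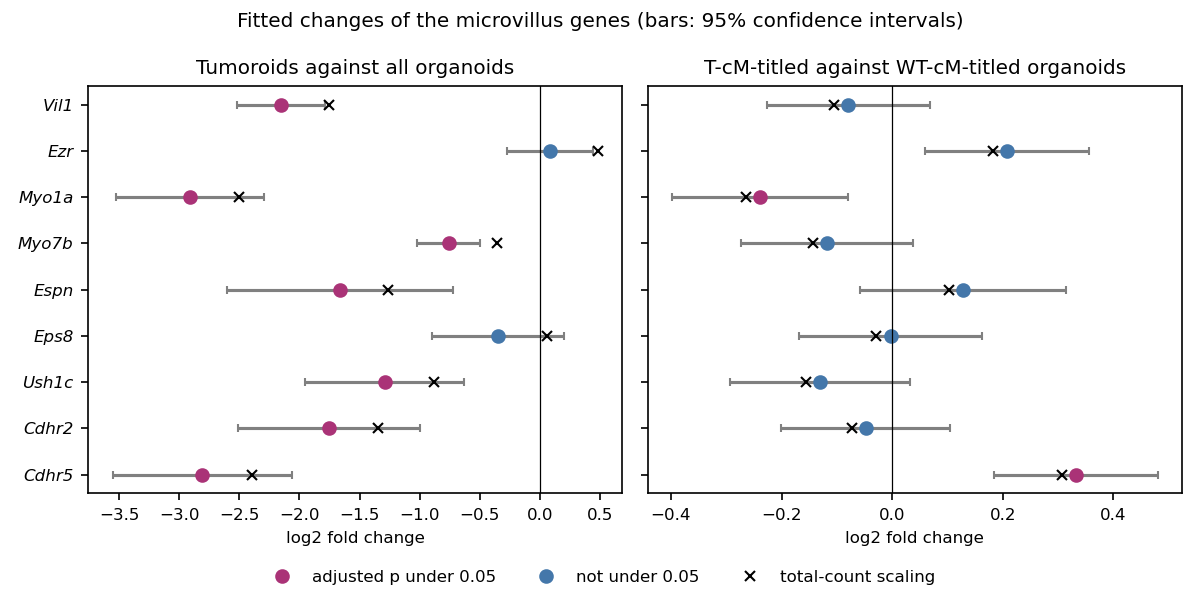
Fitted log2 fold change of each microvillus gene (dots, with 95% confidence intervals as bars) in tumoroids against all organoids (left) and between the organoid groups, T-cM-titled minus WT-cM-titled (right), with the same value under total-count scaling as a cross; the axes of the panels have different ranges. On the left all genes but Ezr lie below 0, and 7 of them passed the test. Total-count scaling moves every value there up, which takes Ezr to 0.48 and Eps8 to 0.06, whereas on the right no change exceeds 0.33 in size.

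The annotation places another gene across part of 5 members. Vil1 shares 49 bases with Usp37, Ezr 4 bases with Sytl3 and Ush1c 3653 bases with Gm9860, each on the opposite strand, and Eps8 shares 1599 bases with Gm44106 on its own strand. The strand setting of the counting was not stated, so the counts of these neighbours cannot be fully told apart from those of the members. Myo7b overlaps the antisense gene Gm16344 over 4871 bases and a pseudogene over 158 bases, also on the opposite strand.

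Because the members were measured in the same libraries, their ratio to Vil1 is free of library scaling. On the log2 CPM scale, Ezr relative to Vil1 was -1.27 ± 0.24 in organoids (SD, n = 6) and 0.96 ± 0.20 in tumoroids (SD, n = 3), a difference of 2.23. Eps8 relative to Vil1 was higher in tumoroids by 1.85 and Myo7b by 1.38, and Myo1a was lower by 0.81. In each of these 4 ratios all tumoroids lay on 1 side of all organoids, and the exact two-sided permutation p was 0.0238, the smallest that 84 arrangements allow (Benjamini-Hochberg adjusted over 8 ratios, p = 0.0476). The other 4 ratios overlapped between the groups, with differences of 0.75 for Ush1c, -0.74 for Cdhr5, 0.37 for Espn and 0.25 for Cdhr2 (exact permutation, adjusted p = 0.152, 0.159, 0.5 and 0.5). This test counts the 6 organoid libraries, which come from 3 mice, as independent. With the same-numbered organoid libraries averaged (chosen after seeing the data) there are 20 arrangements, the smallest two-sided exact permutation p is 0.1 and no ratio can pass, while the groups of these 4 ratios still do not overlap. Without any 1 organoid library none of the 8 ratios passes after adjustment, and without a tumoroid the smallest exact p is 0.0714, so no ratio can pass. Without tumoroid 3 the Myo1a difference was -0.59, and those of Ezr, Eps8 and Myo7b were 2.14, 1.81 and 1.43. The Espn difference turned to -0.12 without tumoroid 3 and was 0.80 without tumoroid 2, and that of Cdhr2 turned to -0.15 without tumoroid 2, so their directions rest on 1 library. In these libraries Ezr, Eps8 and Myo7b thus stood higher and Myo1a lower against Vil1 in tumoroids, which 3 mice of each kind are too few to test by permutation.

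**Figure D3:**
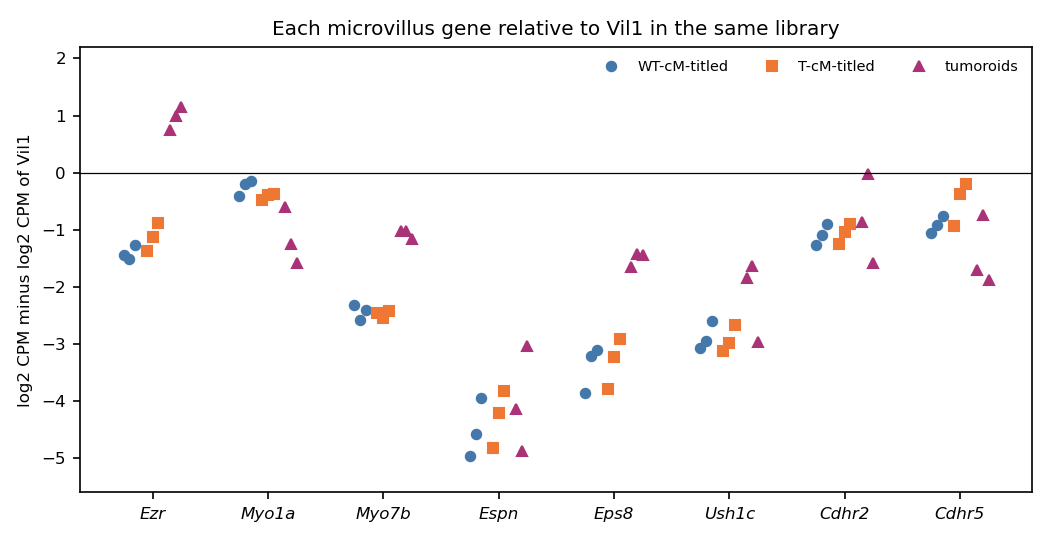
Log2 CPM of each of 8 microvillus genes minus log2 CPM of Vil1 in the same library, 1 point per library, by group; 0 means an equal number of scaled counts, which are not corrected for gene length. Ezr passes from below Vil1 in all 6 organoids to above it in all 3 tumoroids, and Eps8 and Myo7b also lie higher in every tumoroid.

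Between the organoid groups the members moved little. Cdhr5 rose in T-cM-titled organoids and Myo1a fell, so 1 of 9 members was higher and 1 lower, at 5.03% and 5.05% of all tested genes higher and lower, and no member passed with a log2 change larger than 1, as 1.10% of all genes did. The median log2 fold change was -0.05 over the members and 0 over all tested genes. Replicate number was a block in this fit, after the study's own model, so the comparison was made within pairs of libraries. All members' groups overlapped in TMM-scaled CPM.

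Markers of cell types moved between the organoid groups as well. Of 10 enterocyte markers 1 was higher in T-cM-titled organoids and 4 were lower, 4 of 6 Paneth cell markers, 4 of 6 enteroendocrine markers and 2 of 5 crypt stem cell markers were lower, and none of the 5 epithelial markers passed. The enterocyte markers summed to 29182, 53980 and 63840 TPM in WT-cM-titled organoids 1, 2 and 3 and to 30474, 37934 and 43006 TPM in the T-cM-titled organoids of those numbers, so they were lower in pairs 2 and 3 and not in pair 1. Summed Paneth cell markers were lower in each pair, with 17412 to 20512 TPM in WT-cM-titled and 15845 to 17403 TPM in T-cM-titled organoids, as were the enteroendocrine markers, with 575 to 837 and 397 to 719 TPM. Their part in the members' changes was not tested.

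Cdhr5 had 606, 859 and 863 TMM-scaled CPM in WT-cM-titled organoids 1, 2 and 3 and 704, 1160 and 1069 in the T-cM-titled organoids of the same numbers. Each T-cM-titled library was above its partner, by 0.22, 0.43 and 0.31 on the log2 scale. The fitted difference was 1.26-fold (log2 0.33, SE 0.07, edgeR adjusted p = 0.00258). It kept an adjusted p under 0.05 in 9 of 13 alternatives, in which the adjusted p ran from 2.80e-05 to 0.929. The largest of these came without the replicate block, where no gene was called (smallest edgeR adjusted p = 0.601, with 904 genes under 0.05 before adjustment), whereas the blocked fit called 1634. Without replicate 2 or replicate 3 the edgeR adjusted p for Cdhr5 was 0.431 or 0.0519.

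Myo1a had 950, 1425 and 1306 TMM-scaled CPM in WT-cM-titled organoids and 971, 1145 and 944 in T-cM-titled organoids. It was lower in pairs 2 and 3, by -0.32 and -0.47 on the log2 scale, and not in pair 1, at 0.03. The fitted log2 fold change was -0.24 (SE 0.08, edgeR adjusted p = 0.0471), which lies at the threshold. Myo1a passed in 5 of 13 alternatives and was lost with limma voom (adjusted p = 0.146), DESeq2 (0.117), the edgeR 4 form of the test (0.117), edgeR's own expression filter (0.0941), log2(TPM + 1) (0.362) and no replicate block (0.929). Without replicate 1, 2 or 3 its edgeR adjusted p was 2.48e-05, 0.631 or 0.641.

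Ezr was higher in all 3 T-cM-titled libraries than in their partners, by 0.17, 0.27 and 0.15 on the log2 scale, and its fitted value of 0.21 (SE 0.07, edgeR adjusted p = 0.0664) did not pass the test. Myo7b was lower in all 3 pairs, with a fitted value of -0.12 (SE 0.08, edgeR adjusted p = 0.400). For Vil1 (-0.08), Ush1c (-0.13), Cdhr2 (-0.05) and Eps8 (0.00) pair 1 was above 0 and pairs 2 and 3 were below, and for Espn (0.13) pair 3 was below and the others above, with edgeR adjusted p between 0.362 and 1. The 95% intervals of these 5 fitted differences stayed between -0.29 and 0.32, so a change of 1 log2 unit lies outside them.

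**Figure D4:**
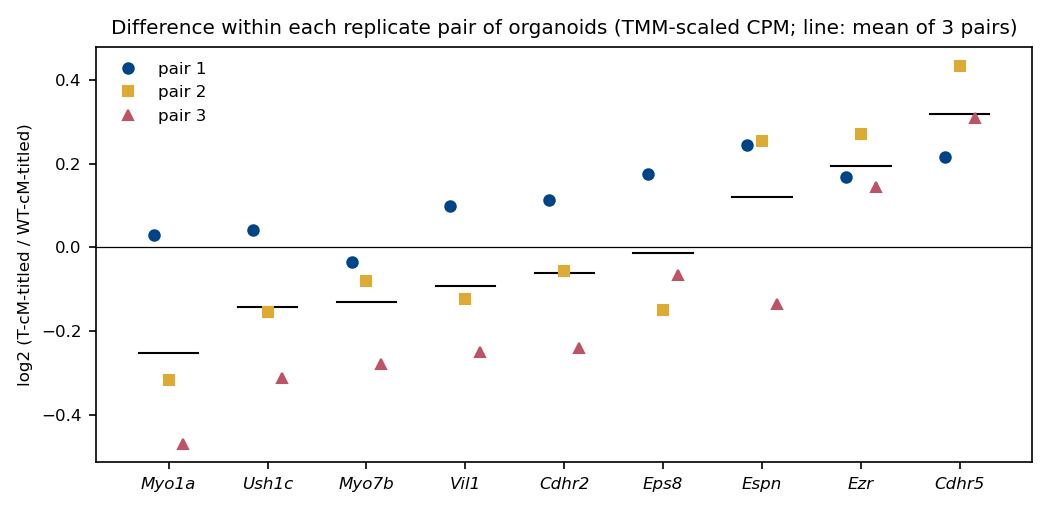
Log2 ratio of T-cM-titled to WT-cM-titled organoids within each pair of libraries with the same replicate number, on TMM-scaled CPM, for each microvillus gene in order of the mean of 3 pairs (line). Cdhr5 and Ezr lie above 0 in all 3 pairs and Myo7b below 0 in all 3, whereas Myo1a runs from 0.03 in pair 1 to -0.47 in pair 3.

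Over the 6 organoid libraries the members did not all vary together. Ezr and Cdhr5 followed each other most closely (Pearson r = 0.991 on log2 CPM), Cdhr2 and Eps8 had r = 0.955 and Vil1 and Myo1a r = 0.920, while Ezr and Myo7b had r = -0.12. These coefficients describe 6 libraries from 3 mice under both media and share the replicate as a source, so they carry no test. Summed enterocyte markers also ranged over these libraries, from 29182 to 63840 TPM, and their part in the members' spread was not tested. The genes most like the mean of the 9 scaled members over all 9 libraries were Guca2a (guanylin, r = 0.996), Atp1b1 (a sodium pump subunit, r = 0.993), Pfkp (r = 0.991), Naaladl1 (r = 0.990) and Gpx4 (r = 0.989), of 10668 genes compared. Within the 6 organoid libraries they were Rhbdd1 (r = 0.997), Slc46a1 (the intestinal folate transporter, r = 0.993), Cyp4b1 (r = 0.992), Ceacam18 (r = 0.990) and Gm21885 (r = 0.990), of 9773 genes. No gene appeared in both sets of 5. Both sets are the highest of many coefficients over few libraries, so values this high can arise by chance, and no test was made. Coefficients over all 9 libraries also reflect the gap between organoids and tumoroids.

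Several relatives of the members were higher in tumoroids. Of the villin family, Vill (villin-like) had 0.300 to 0.880 TPM in organoids and 58.5, 75.3 and 154 TPM in tumoroids 1, 2 and 3. It passed the filter on low values through tumoroids alone, as did Msn, Rdx, Slc9a3r2, Stk10, Stk26 and Ush1g below, so these genes had to differ and their levels are given with no test. Avil (advillin) had 6.73 to 7.79 TPM in organoids and 33.8, 46.1 and 55.6 TPM in tumoroids (log2 2.11, SE 0.15, edgeR adjusted p = 6.35e-06). Both stood above every organoid in every tumoroid. Avil is also a tuft cell marker, and the other 5 tuft markers summed to 11.2 to 17.3 TPM in organoids and 33.9, 15.8 and 28.4 TPM in tumoroids 1, 2 and 3, so tumoroid 2 lay within the organoids' range. Of the tuft markers, 2 of 5 tested were higher (Avil and Pou2f3) and the others stood at log2 values of -0.67 (Dclk1), -0.58 (Trpm5) and -0.11 (Alox5ap) that did not pass.

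The paralogs of ezrin in the ERM family had few or no counts in organoids. Msn (moesin) had at most 2 counts in any organoid library and 630, 1182 and 7184 counts in tumoroids 1, 2 and 3, or 14.8, 25.9 and 140 TPM. Against a floor of 3 counts in each organoid library, its mean was at least 631-fold higher in tumoroids, and the lowest tumoroid was at least 169-fold higher. Rdx (radixin) had 0 to 6 counts in organoids and 108, 384 and 1768 in tumoroids, or 3.45, 11.5 and 46.9 TPM. Tumoroid 3 carried most of both, since without it the tumoroid mean of Msn was 36.2 TMM-scaled CPM in place of 106 and that of Rdx 9.59 in place of 26.6. That library also had the highest sum of the 7 stroma markers, 94.0 TPM against 7.68 and 4.21 in tumoroids 1 and 2 and 0.430 to 1.57 in organoids. Of its 94.0 TPM, Acta2 made up 92.5, whereas Col3a1 was at 0 and Dcn, Pdgfra and Col1a2 were at most at 0.09 TPM in every tumoroid. Col1a1 had 7 to 12 counts in tumoroids (0.150 to 0.220 TPM) and 0 to 2 counts in organoids, and Pdgfrb had 0.110, 0.080 and 1.17 TPM in tumoroids 1, 2 and 3 and 0.200 to 0.510 TPM in organoids. Endothelial markers (4 genes) summed to 0.360 to 2.17 TPM in tumoroids, highest in tumoroid 3, and to 0.170 to 0.450 TPM in organoids. Immune markers (5 genes) summed to 1.96 to 15.8 TPM in tumoroids, highest in tumoroid 2, and to 0.200 to 2.12 TPM in organoids. The part of stromal, endothelial and immune cells in the levels of Msn and Rdx was not tested.

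**Figure D5:**
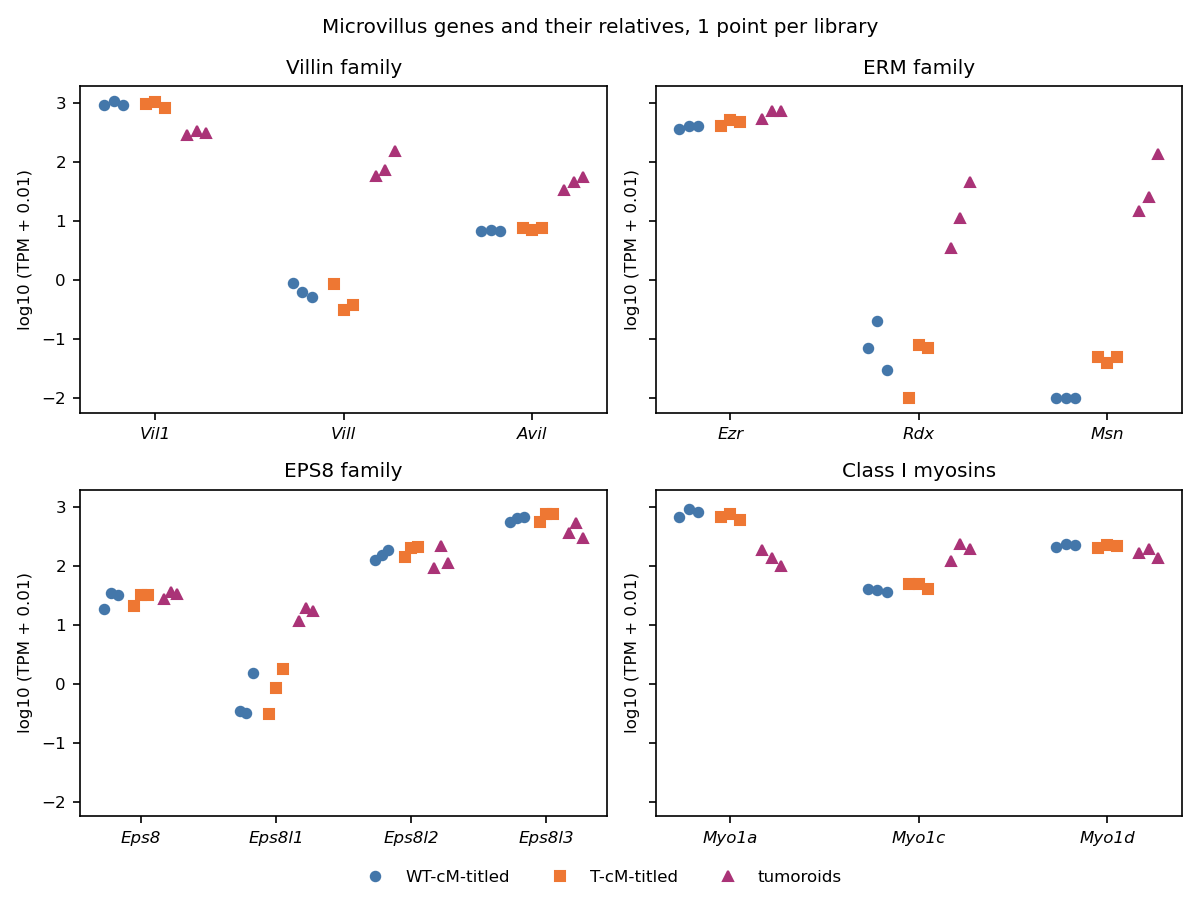
Log10 of TPM plus 0.01 in each library for microvillus genes and their relatives in 4 families, by group, with 1 point per library; a value of -2 is a gene listed at 0. Avil and Eps8l1 are higher in all 3 tumoroids than in all 6 organoids, while Vil1 and Myo1a are lower. Vill, Rdx and Msn also lie higher in tumoroids, but they passed the filter on low values through tumoroids alone and so had to differ.

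In the Eps8 family, Eps8l1 had 0.290 to 1.76 TPM in organoids and 11.7, 18.99 and 17.2 TPM in tumoroids and rose (log2 3.67, SE 0.58, edgeR adjusted p = 0.000606). Eps8l3 fell (log2 -1.27, SE 0.22, edgeR adjusted p = 0.00112), and Eps8l2 fell under TMM scaling (log2 -0.81, edgeR adjusted p = 0.0321) and not under total-count scaling (log2 -0.41, edgeR adjusted p = 0.205) or against WT-cM-titled organoids alone (edgeR adjusted p = 0.0913). Among class I myosins, Myo1c (log2 1.58, SE 0.16, edgeR adjusted p = 3.79e-05) and Myo1e (log2 0.74, SE 0.18, edgeR adjusted p = 0.00675, with overlapping groups) rose and Myo1d fell (log2 -0.94, SE 0.16, edgeR adjusted p = 0.000789).

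Of the direct partners of the members, Anks4b, Pls1, Slc9a3r1, Pdzk1 and Pdzd3 fell in tumoroids and Calml4 did not pass the test. Anks4b, the ankyrin-repeat protein that joins Ush1c and Myo7b in the tip complex, had 133 to 201 TPM in organoids and 31.6, 39.2 and 29.2 TPM in tumoroids (log2 -2.82, SE 0.20, edgeR adjusted p = 5.67e-06). Calml4, the light chain of Myo7b, stood at log2 -0.45 and did not pass (edgeR adjusted p = 0.0569). Of the other genes on the adhesion list, Cdhr1, Cdhr3 and Cdhr4 were below the filter. Pls1 (plastin 1, a bundler of the core beside villin and espin) had 268 to 408 TPM in organoids and 81.3, 122 and 128 TPM in tumoroids (log2 -2.14, SE 0.22, edgeR adjusted p = 3.89e-05). Slc9a3r1 (EBP50), the scaffold bound by ezrin, had 481 to 908 TPM in organoids and 227, 367 and 208 TPM in tumoroids (log2 -1.79, SE 0.24, edgeR adjusted p = 0.000190), and Pdzd3 fell as well (log2 -5.34, edgeR adjusted p = 2.08e-05). Pdzk1 fell against both organoid groups (log2 -2.41, edgeR adjusted p = 0.0272) and did not pass against WT-cM-titled organoids alone (edgeR adjusted p = 0.0544), with tumoroid 2 at 4.76 TPM within the organoids' range of 2.96 to 9.48. Slc9a3r1 and Pdzd3 were lower in every tumoroid than in every organoid, while Ezr was not called lower under any scaling tried.

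Over the lists of other microvillus genes, which were chosen with earlier results of these data known, the counts in tumoroids were mixed. They are given for genes that reached 1 TPM in at least 1 library of both kinds of culture, of which there were 12855 among all genes, with 24.4% higher and 23.2% lower (42.6% and 13.9% under total-count scaling). Among 13 such genes of the actin bundle and tip, 3 rose and 8 fell, against 4 and 4 under total-count scaling. Of these, Capza1 (an actin capping subunit) fell (log2 -1.49, edgeR adjusted p = 8.66e-06). Among 13 tested ERM linkers, scaffolds and kinases, 5 passed the filter through tumoroids alone (Msn, Rdx, Slc9a3r2, Stk10 and Stk26), and of the other 8 genes 3 rose and 4 fell under both scalings. Podxl (podocalyxin) rose (log2 3.80, edgeR adjusted p = 1.92e-05). Slc9a3r2, a relative of Slc9a3r1, had 0.580 to 0.910 TPM in organoids and 10.9, 15.7 and 18.1 TPM in tumoroids, and Stk10, a kinase that phosphorylates ERM proteins, had 0.660 to 0.900 and 8.61, 14.6 and 7.63 TPM. Among 11 apical myosins and calmodulins, 2 rose and 6 fell (3 and 3 under total-count scaling), with Myo5b, a motor of apical membrane traffic, at log2 -0.89 (edgeR adjusted p = 0.000450).

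Of 9 such genes of the terminal web, in which the actin rootlets sit, 2 rose and 4 fell (2 and 3 under total-count scaling). The keratins Krt18 (log2 1.38) and Krt19 (log2 -1.11) went in opposite directions (edgeR adjusted p = 0.000346 and 0.000294). Of 9 apical traffic genes 1 rose and 4 fell (3 and 2 under total-count scaling), among them Rab8a (log2 -1.43, edgeR adjusted p = 3.05e-05) and Stx3 (log2 -1.22, edgeR adjusted p = 0.000108), a GTPase and a syntaxin needed for apical delivery. Of the stereocilia counterparts of the tip complex, 3 of 7 were tested. Myo7a fell (log2 -1.31, edgeR adjusted p = 0.00793) and Whrn passed under total-count scaling (log2 0.74, edgeR adjusted p = 0.0177) but not TMM scaling (log2 0.34, edgeR adjusted p = 0.213). Ush1g was tested through tumoroid 3 alone, with 6, 10 and 260 counts in tumoroids 1, 2 and 3 and 0 to 4 counts in organoids. Of 9 transcription factors of enterocytes 1 rose and 5 fell (2 and 3 under total-count scaling). Hnf4g had 416 to 677 TPM in organoids and 32.9, 41.8 and 15.7 TPM in tumoroids (log2 -4.65, SE 0.39, edgeR adjusted p = 1.35e-05). Its paralog Hnf4a stood at log2 -1.16 (SE 0.21, edgeR adjusted p = 0.00127), and Cdx2 at -0.39 (edgeR adjusted p = 0.208) turned to 0.01 under total-count scaling.

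Between the organoid groups, 9 of the 71 tested genes on these lists passed, or 12.7%, near the 10.1% of all tested genes that did in either direction. Slc9a3r1 was higher in each T-cM-titled library than in its partner (log2 0.42, SE 0.08, edgeR adjusted p = 0.000354), in the same direction as Cdhr5. Clic4 (log2 0.37), Myo1c (0.26), Myh14 (0.28), Sptan1 (0.30), Sptbn1 (0.45) and Elf3 (0.26) were also higher in all 3 pairs, with edgeR adjusted p between 0.00195 and 0.0331. Podxl, a sialomucin that binds the ezrin scaffold, fell (log2 -0.97, SE 0.18, edgeR adjusted p = 0.000384), and Calm3 fell (log2 -0.26, edgeR adjusted p = 0.0192), each in all 3 pairs. None of the genes on these lists was called without the replicate block.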

How the data were processed

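RNA from 9 mouse libraries (6 organoid, 3 tumoroid) was sequenced as stranded, polyA-selected, paired-end reads. The authors aligned reads to mm10 with STAR, per the labels, counted them on Gencode genes, and deposited unnormalised raw counts for each gene. The authors also deposited TPM, which are scaled for gene length and library total. The counting tool, its strand setting and the gene length used are not given in the sources used here. Coordinates came from Gencode release M21 on the same build, and start-site windows from RefSeq on GRCm38.p6.

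Analyses used R 4.3.3 with edgeR 4.0.16, limma 3.58.1 and DESeq2 1.42.0. Genes with at least 1 TPM in at least 1 library were kept, counts were scaled by TMM, and edgeR's quasi-likelihood F test in the form used before edgeR 4 was applied with Benjamini-Hochberg adjustment at 0.05. Standard errors were the log2 fold change divided by the root of F. The organoid groups were compared over 6 libraries, blocked by replicate number, and tumoroids over all 9 libraries without one. Same-numbered organoid libraries deviated together (r = 0.546, 0.338 and 0.547). Libraries of unlike number were not correlated, so these values alone do not establish the pairs, which follow the study's model. Tumoroids did not share these deviations (r = 0.083, 0.033 and -0.070 with WT-cM-titled organoids). CPM in the text are TMM-scaled, and ratios to Vil1 were taken on log2 CPM (prior count 2) with an exact two-sided permutation test. The fitting code was tested on simulated data of known fold changes.

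The members and gene lists were chosen with earlier results of these data known. Genes were named as the 9 members, their direct paralogs and partners, the genes with the lowest p of every list (at most 4 per comparison), and the 5 genes most like the members' mean. Results of some genes named by this rule are not reported here. Groups follow the titles of the libraries. Marker genes served only as checks of cell type, apart from Avil, Krt8 and Krt18, which are also on the lists of other microvillus genes. At 3 counts, taken as the floor, a gene had 0.103 to 0.204 CPM, which covers counting error only. Alternatives were limma voom, DESeq2, the edgeR 4 form, RLE, upper-quartile and total-count scaling, other expression filters, log2(TPM + 1) with limma, the replicate block left out or added, and each library or pair left out. Total-count scaling and averaged organoid pairs were chosen after seeing the data. DESeq2 estimated its own size factors. The other data of the study were not analysed here.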

Additional observations from a re-analysis of the deposited data

How the results depend on the processing

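For tumoroids against both organoid groups, Vil1, Myo1a, Espn, Ush1c, Cdhr2 and Cdhr5 kept their direction and an adjusted p under 0.05 in all 19 alternatives, Myo7b in 18, Ezr passed in 2 and Eps8 in none. The number of members called higher became 1 (Ezr) with log2(TPM + 1) against WT-cM-titled, T-cM-titled and both organoid groups, and 1 with total-count scaling against WT-cM-titled and both groups. In these, 79.8% and 77.4% of all calls were higher, against 58.7% with TMM. Eps8 turned to log2 values of 0.22, 0.21 and 0.22 with log2(TPM + 1) and 0.033, 0.087 and 0.060 with total-count scaling against WT-cM-titled, T-cM-titled and both groups. Ezr against T-cM-titled organoids, at -0.02, turned to 0.090 with upper-quartile factors, 0.0061 without a filter, 0.50 with log2(TPM + 1) and 0.39 with total-count scaling, and ran from -0.131 to 0.078 with 1 library left out. Against both groups it ran from -0.0029 (without tumoroid 3) to 0.18. Adding a replicate block to the tumoroid fits changed none of the members' counts.

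Between the organoid groups, the 1 member called lower (Myo1a) became 0 with limma voom, DESeq2, the edgeR 4 form, edgeR's expression filter, log2(TPM + 1), no replicate block and a fold threshold of 1, and ran from 0 to 1 with a replicate left out. The 1 member called higher (Cdhr5) became 0 with log2(TPM + 1), no replicate block and the fold threshold, and ran from 0 to 2 with a replicate left out, where 2872, 1 and 533 genes were called without replicates 1, 2 and 3 (1634 with all). Over all genes, limma voom called 581, DESeq2 794, the edgeR 4 form 1048, and log2(TPM + 1) 0 (smallest adjusted p = 0.276, 2690 genes at an unadjusted p under 0.05). Eps8 was 0.0083 with log2(TPM + 1) and ran from -0.095 to 0.057 with a replicate left out, and Cdhr2 from -0.136 to 0.033. Of 8 ratios to Vil1, the 4 that passed became 0 without any organoid library (range 0 to 0) and 0 with same-numbered organoid libraries averaged, where the number of arrangements limits p. Otherwise the cause was not tested.

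The lowest count of any member in any library was 295 (Espn), and the part of depth in the calls was not tested.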
